A study of Homo sapiens with 9 samples.

Results

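The Sprouty, SPRED and dual-specificity phosphatase genes that restrain mitogen-activated protein kinase (MAPK) signalling were followed in prostate cancer cells whose OGDHL gene had been targeted for knockout. They comprised 10 of the 36650 genes in the table, found by their symbols: SPRY1, SPRY2, SPRY4, SPRED1, SPRED2, DUSP2, DUSP4, DUSP5, DUSP6 and DUSP7. SPRY4, DUSP2 and DUSP4 had been picked because their levels differed, in opposite directions, in the cells given the dMTS form of OGDHL. Their values in any comparison that holds the dMTS libraries are therefore a description and carry no p-value. The other 7 were listed as relatives of these, at a time when earlier results of these data were known.

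The 9 mRNA libraries came from 16D, a castration-resistant prostate cancer (CRPC) cell line. Every library came from cells in which Cas9 and a guide RNA, delivered by lentivirus, targeted OGDHL, whose product resembles the first enzyme of the mitochondrial complex that oxidises 2-oxoglutarate. These cells had adapted for 6 weeks to enzalutamide, an androgen receptor antagonist, and stayed in it at 10 µM. A second lentivirus then brought 1 of 3 genes: eGFP as the control (3 libraries), OGDHL that resists the knockout in full length (3 libraries), or the knockout-resistant form whose mitochondrial targeting sequence is deleted, called dMTS (3 libraries). The series holds no unedited cells and none without enzalutamide, so each comparison is between knockout cells under drug. The sources used here give neither the promoter of the transgenes nor whether the knockout cells were 1 clone or a pool. The labels do not say if replicates were cultured apart. A p-value here therefore speaks of the spread among these libraries, which may be technical.

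Sprouty proteins and the related SPRED proteins dampen receptor tyrosine kinase signalling upstream of ERK. SPRED proteins bring neurofibromin, which switches RAS off, to the membrane. Dual-specificity phosphatases of the MAPK phosphatase class remove the activating phosphates from MAP kinases: DUSP2, DUSP4 and DUSP5 do so in the nucleus, while DUSP6 and DUSP7 act on ERK in the cytoplasm. Several of these genes are themselves transcribed when ERK is active, which closes a negative feedback loop, and loss of Sprouty expression has been described in prostate cancer.

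Promoter sequence is shown for SPRY4 and DUSP2, whose mRNA was lower together with dMTS, and for SPRY2 and DUSP7, relatives from the same 2 families that lacked that decrease. RefSeq (GRCh38.p14) gave start sites for 8 of the 10 members, with 12 start sites in all. The windows are the 250 bases upstream of a start site, written 5′ to 3′ on the gene's strand, which is the minus strand for all 4. They lie at chr5:142324248-142324497 for SPRY4, chr2:96145441-96145690 for DUSP2, chr13:80341127-80341376 for SPRY2 and chr3:52056572-52056821 for DUSP7. Capitals mark the core of the cyclic AMP response element (TGACG) or the E-box (CACGTG).
SPRY4 promoter: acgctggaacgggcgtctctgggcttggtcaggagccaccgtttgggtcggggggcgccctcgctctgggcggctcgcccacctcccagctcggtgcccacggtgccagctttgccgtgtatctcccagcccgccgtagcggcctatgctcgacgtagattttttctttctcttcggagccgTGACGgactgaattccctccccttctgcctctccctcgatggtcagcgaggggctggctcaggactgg
DUSP2 promoter: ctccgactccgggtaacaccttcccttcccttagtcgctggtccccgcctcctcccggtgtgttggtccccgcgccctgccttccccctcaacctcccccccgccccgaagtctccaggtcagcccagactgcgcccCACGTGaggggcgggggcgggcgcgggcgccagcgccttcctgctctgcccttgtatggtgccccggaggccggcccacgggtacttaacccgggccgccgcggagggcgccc
SPRY2 promoter: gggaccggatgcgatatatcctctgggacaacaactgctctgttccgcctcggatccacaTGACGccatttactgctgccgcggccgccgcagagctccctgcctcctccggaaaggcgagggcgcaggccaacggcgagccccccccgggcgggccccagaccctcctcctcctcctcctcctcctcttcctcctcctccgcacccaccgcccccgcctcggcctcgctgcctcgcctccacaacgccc
DUSP7 promoter: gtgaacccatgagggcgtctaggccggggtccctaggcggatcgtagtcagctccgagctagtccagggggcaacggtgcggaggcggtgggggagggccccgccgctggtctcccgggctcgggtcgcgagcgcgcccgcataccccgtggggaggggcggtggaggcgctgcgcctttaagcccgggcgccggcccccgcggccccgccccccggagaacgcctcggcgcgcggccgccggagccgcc
The SPRY4 window holds TGACG with its first base 68 bases before the start site, and the SPRY2 window holds it at 190 bases. The DUSP2 window holds CACGTG at 113 bases. The DUSP7 window holds neither. Beside these, the site of ETS factors (CCGGAAG), that of AP-1 (TGANTCA), the CArG box of serum response factor and the SP1 site (GGGCGG) were searched, all on both strands and with overlapping matches allowed. TGACG was in 21.2% of the 35116 human windows of this length, CACGTG in 6.34%, CCGGAAG in 8.52%, TGANTCA in 6.57%, the CArG box in 1.16% and GGGCGG in 42.6%. Among the 12 windows of the members, 2 held TGACG, 1 held CACGTG, 1 (for SPRY1) held CCGGAAG, 6 held GGGCGG, and 0 held TGANTCA or the CArG box. In the windows shown, SPRY4 and DUSP2 share GGGCGG, which SPRY2 and DUSP7 hold too. SPRY2 has further RefSeq start sites inside the gene, whose windows are not shown and hold none of the motifs searched. The RefSeq start of SPRY4 lies 2208 bases inside the gene as the table bounds it, and 170 bases of its window fall in exons annotated by GENCODE 29.

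The table gives transcripts per 1000000 (TPM), which the authors divided by the genomic span of each gene, introns included. A gene with long introns thus has a low TPM whatever its number of reads. The scales used below are TPM as deposited, TPM rescaled so that the typical gene keeps 1 level across libraries, and reads estimated from the TPM. The estimated depth ran from 86.3 to 121 M reads (M, 1000000) a library. Mitochondrially encoded genes held 54.9% of the TPM of dMTS replicate 2, against 62.1% to 66.0% in the other 8 libraries, and its median log2 ratio over the tested genes was 0.28, outside the range of -0.13 to 0.07 in the others. OGDHL RNA was still detected with eGFP, at 1.19 ± 0.07 TPM (SD, n = 3) and 883 to 1162 estimated reads. Without unedited cells or a protein measure, the files do not show how much of the gene product was lost. OGDHL was at 218 ± 52.8 TPM with full-length OGDHL and 125 ± 49.5 TPM with dMTS. The 7 luminal prostate markers were all detected, with KLK3 at 1041 to 1235 TPM. The 9 markers of other cell types found in the table, of 11 listed, summed to 3.32 to 3.42 TPM with eGFP, 3.09 to 3.20 with full-length and 2.52 to 2.88 with dMTS. Nearly all of that sum was the collagen gene COL1A1, while the leukocyte gene PTPRC, the endothelial gene PECAM1, the basal cell gene TP63 and the fibroblast collagen COL1A2 were each under 0.01 TPM in every library.

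SPRY4 was lowest with the dMTS form and intermediate with full-length OGDHL. SPRY4 encodes a Sprouty that holds back the ERK cascade, and the gene lies at chr5:142310427-142326455 on the minus strand (ENSG00000187678). Its level was 5.61, 5.29 and 4.47 TPM in eGFP replicates 1, 2 and 3. With full-length OGDHL it was 3.63, 3.68 and 3.89 TPM, and with dMTS it was 2.00, 1.95 and 1.49 TPM. All 3 dMTS libraries lay below all 3 full-length libraries, and these below all 3 eGFP libraries. That ordered separation held for 1.44% of the 13231 genes tested. The estimated reads ran from 2037 to 2987 with eGFP, 1743 to 2231 with full-length and 817 to 1079 with dMTS.

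On the log2 scale of TPM + 1, SPRY4 differed by -1.12 (SE 0.10) between dMTS and eGFP and by -1.17 (SE 0.08) after rescaling. The added 1 shrinks the difference of a gene at such a level: on estimated reads it was -1.58 (SE 0.10), or 2.98-fold lower with dMTS. Between dMTS and full-length the difference was -0.75 (SE 0.10) as deposited and -1.11 (SE 0.10) on estimated reads, or 2.16-fold lower with dMTS. In bulk RNA, fewer cells making SPRY4 and less SPRY4 RNA per cell cannot be told apart. The antisense gene SPRY4-AS1, which overlaps the first part of SPRY4, had between 2.00 and 13.0 estimated reads, and the library kit marks strand. The sources used here do not say whether the counting used strand.

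DUSP2 followed the same order as SPRY4. DUSP2 is an inducible nuclear phosphatase of ERK and p38, at chr2:96143169-96145440 on the minus strand (ENSG00000158050). Its level was 17.7, 17.8 and 16.2 TPM with eGFP, 12.8, 11.4 and 13.4 TPM with full-length OGDHL, and 9.83, 10.4 and 8.28 TPM with dMTS. The 3 groups did not overlap, with dMTS lowest and eGFP highest. Its log2 difference between dMTS and eGFP was -0.80 (SE 0.10) as deposited, -0.86 (SE 0.08) rescaled and -0.93 (SE 0.08) on estimated reads, or 1.91-fold lower with dMTS. Between dMTS and full-length it was -0.37 (SE 0.10) as deposited and -0.46 (SE 0.08) on estimated reads.

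DUSP4 ran the other way. It encodes a nuclear phosphatase of ERK, JNK and p38 (ENSG00000120875, minus strand of chromosome 8). Its level was 1.65, 1.59 and 1.53 TPM with eGFP, 1.82, 1.75 and 2.00 TPM with full-length OGDHL, and 2.19, 3.47 and 2.79 TPM with dMTS. The groups again did not overlap, here with dMTS highest, an order that 0.212% of tested genes showed as deposited. The highest value stood in dMTS replicate 2, the library with the low mitochondrial share. After rescaling the dMTS libraries were at 2.38, 2.86 and 2.82 TPM, and those with eGFP at 1.58 to 1.67 TPM. The log2 difference between dMTS and eGFP was 0.54 (SE 0.11) as deposited, 0.49 (SE 0.05) rescaled and 0.74 (SE 0.09) on estimated reads, or 1.66-fold higher with dMTS.

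**Figure D1:**
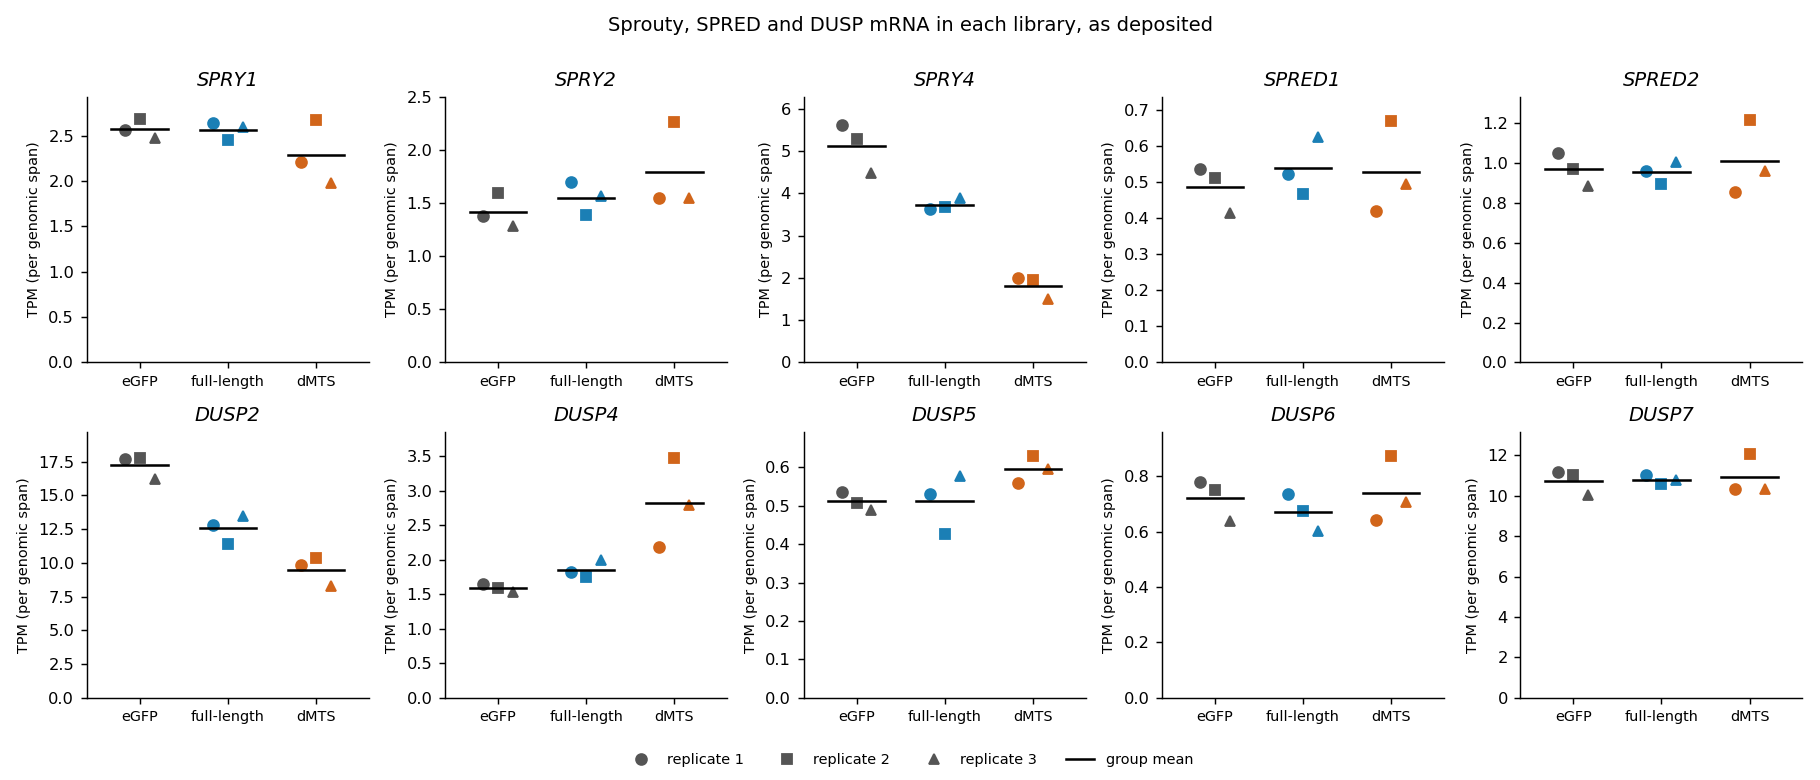
Levels of the 10 genes in TPM as deposited (vertical axes, each from 0), by group, with 1 point per library, its replicate shown by the marker shape, and a line at each group mean. SPRY4 and DUSP2 step down from eGFP to full-length to dMTS, DUSP4 steps up, and for the other 7 genes the dMTS points overlap the eGFP points in all but DUSP5.

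The other members did not pass the test with dMTS when all 9 libraries were used. Of those 7, 4 reached the level tested, which was 1 TPM or more in 3 or more libraries. Limma, a linear model with a shared estimate of spread, called 0 of these 4 against eGFP as deposited, and 0 had an unadjusted p under 0.05. Over all 13231 genes it called 0.514%, and 1446 had an unadjusted p under 0.05. After rescaling it again called 0 of the 4, with 2 at an unadjusted p under 0.05. Of all genes 9.39% were then called, and 3742 of 13231 had an unadjusted p under 0.05. On estimated reads all 7 could be tested, and limma-voom called 0, with 1 at an unadjusted p under 0.05. Over all 23930 genes it called 7.5%, and 5744 had an unadjusted p under 0.05. Across the 7 genes the log2 differences on estimated reads lay between -0.24 and 0.26.

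SPRY1 and SPRY2 had differences of opposite sign with dMTS, and neither passed the test with all 9 libraries. SPRY1, a Sprouty that binds GRB2 among other adaptors, was at 2.57, 2.68 and 2.47 TPM with eGFP, 2.64, 2.45 and 2.59 TPM with full-length, and 2.21, 2.67 and 1.98 TPM with dMTS. The groups overlapped as deposited, through dMTS replicate 2. After rescaling, the dMTS libraries at 2.01 to 2.39 TPM lay below eGFP at 2.45 to 2.71 TPM, a separation in that direction found for 17.2% of tested genes. The log2 difference was -0.13 (SE 0.09, limma adjusted p = 0.660) as deposited, -0.18 (SE 0.05, adjusted p = 0.0723) rescaled and -0.24 (SE 0.08, adjusted p = 0.0963) on estimated reads. With 1 library left out, as deposited or rescaled, it ran from -0.22 to -0.06. The value of -0.22, rescaled and without dMTS replicate 1, had a limma adjusted p of 0.0243, in a fit that called 2359 of 13196 genes. None of the other values from leaving out 1 library passed the test.

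SPRY2, which also binds the ubiquitin ligase CBL, was at 1.38, 1.59 and 1.28 TPM with eGFP, 1.69, 1.39 and 1.57 TPM with full-length, and 1.55, 2.27 and 1.55 TPM with dMTS. The dMTS and eGFP libraries overlapped, and the top value was again in dMTS replicate 2. Its log2 difference was 0.20 (SE 0.11, limma adjusted p = 0.564) as deposited and 0.15 (SE 0.06, adjusted p = 0.171) rescaled. These p-values do not show that either Sprouty was at an equal level in the 2 groups.

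The SPRED genes and DUSP7 had small differences. SPRED2 was at 0.887 to 1.05 TPM with eGFP, 0.898 to 1.01 TPM with full-length and 0.854 to 1.22 TPM with dMTS. It reached 1 TPM in 3 libraries, the smallest number the filter admits, although its long introns hide 3068 to 4743 estimated reads a library. Its log2 difference between dMTS and eGFP was 0.03 (SE 0.09, limma adjusted p = 0.916) as deposited and -0.02 (SE 0.06, adjusted p = 0.874) on estimated reads. SPRED1, the member mutated in Legius syndrome, stayed below the filter at 0.413 to 0.670 TPM, and its difference on estimated reads was 0.03 (SE 0.11, limma-voom adjusted p = 0.894). DUSP7 was at 10.1 to 11.2 TPM with eGFP, 10.6 to 11.0 TPM with full-length and 10.3 to 12.1 TPM with dMTS. Its difference was 0.02 (SE 0.09, limma adjusted p = 0.942) as deposited and -0.05 (SE 0.05, adjusted p = 0.593) on estimated reads.

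DUSP5 and DUSP6 were the other members below the filter. DUSP5, an inducible nuclear phosphatase that acts on ERK, was at 0.537, 0.508 and 0.490 TPM with eGFP and at 0.558, 0.631 and 0.596 TPM with dMTS. Those groups did not overlap as deposited, as for 5.24% of tested genes in that direction, but did after rescaling, and the full-length libraries ran from 0.426 to 0.578 TPM. On estimated reads the dMTS difference was 0.15 (SE 0.11, limma-voom adjusted p = 0.437). DUSP6, the cytoplasmic ERK phosphatase often read as a gauge of ERK activity, was at 0.639 to 0.781 TPM with eGFP, 0.602 to 0.736 TPM with full-length and 0.641 to 0.875 TPM with dMTS. It had 95.6 to 147 estimated reads a library, the fewest of the 10, and its difference on estimated reads was -0.04 (SE 0.13, limma-voom adjusted p = 0.879).

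**Figure D2:**
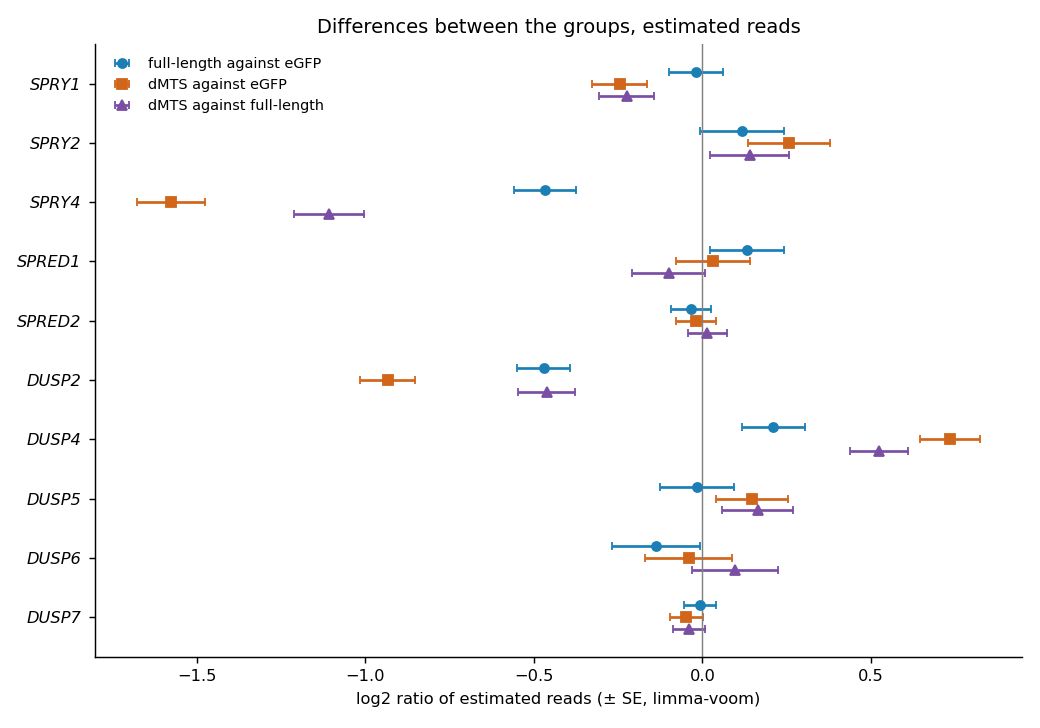
Log2 ratios of estimated reads between groups (horizontal axis) for the 10 genes, with bars of ± 1 SE from limma-voom. With dMTS against eGFP, SPRY4 stands at -1.58, DUSP2 at -0.93 and DUSP4 at 0.74, and the other 7 genes between -0.24 and 0.26.

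Full-length OGDHL was compared with eGFP by the same fit. The 2 comparisons share the eGFP libraries, so SPRY4, DUSP2 and DUSP4 are not independent of their choice here either, and they are again described with no p-value. Of the other members limma called 0 of the 4 tested as deposited, where it called 0.00756% of all genes, and 0 of the 4 after rescaling (0.0302% of all genes). On estimated reads limma-voom called 0 of the 7 (0.0251%). In each of these fits 0 of them had an unadjusted p under 0.05. Of all genes, 261, 1215 and 1771 had such a p, in the same order of fits. On estimated reads the other members lay between -0.14 and 0.13. SPRY4 differed by -0.37 (SE 0.10) as deposited, by -0.37 (SE 0.08) rescaled, and by -0.47 (SE 0.09) on estimated reads, or 1.38-fold lower. DUSP2 differed by -0.43 (SE 0.10) as deposited, -0.44 (SE 0.08) rescaled and -0.47 (SE 0.08) on estimated reads, or 1.39-fold lower.

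The difference of DUSP4 between full-length and eGFP was 0.14 (SE 0.11) as deposited and 0.21 (SE 0.09) on estimated reads. SPRY4 and DUSP2 were lower and DUSP4 higher in 3 of 3 full-length libraries than in every eGFP library. Of the tested genes, 9.39% were separated with full-length lower and 2.08% with it higher.

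Between the 2 OGDHL forms, limma called 0 of the 4 tested members chosen by family as deposited, where it called 0 of all 13231 genes and 717 had an unadjusted p under 0.05. It called 0 of the 4 rescaled (0.00756% of all genes), and limma-voom called 0 of 7 on estimated reads (0.00418%). SPRY1 had the largest difference of the 7, -0.23 (SE 0.08, limma-voom adjusted p = 0.255) on estimated reads with dMTS lower. DUSP4 differed by 0.40 (SE 0.11) as deposited and by 0.52 (SE 0.09) on estimated reads with dMTS higher. SPRY4, DUSP2 and DUSP4 each separated the dMTS from the full-length libraries without overlap, as did 4.22% of tested genes with dMTS lower and 4.7% with it higher.

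To set members beside each other, estimated reads were divided by the length of annotated exons and by the library total (reads per kb of exon per M reads), which assumes that the counted reads were exonic. With eGFP the order was SPRED2 (7.13), DUSP2 (6.31), DUSP7 (4.53), SPRY4 (3.89), SPRED1 (1.91), SPRY1 (1.41), DUSP4 (1.20), DUSP5 (0.831), SPRY2 (0.749) and DUSP6 (0.256). In that order only DUSP5 and SPRY2 had overlapping libraries among neighbours. With full-length OGDHL, DUSP2 (4.55) and DUSP7 (4.52) overlapped, as did DUSP4 (1.391) and SPRY1 (1.390), and DUSP5 (0.821) and SPRY2 (0.813). With dMTS, DUSP7 (4.39) stood above DUSP2 (3.32), DUSP4 (2.01) overlapped SPRED1 (1.96), and SPRY4 (1.32) overlapped SPRY1 (1.19).

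The shares of the picked genes followed their levels. SPRY4 supplied 64.3% ± 2.14 (SD, n = 3) of the summed SPRY1, SPRY2 and SPRY4 level with eGFP, 56.1% ± 1.74 with full-length and 38.7% ± 3.74 with dMTS. The sum itself was 6.05 ± 0.27 with eGFP, 5.01 ± 0.07 with full-length and 3.40 ± 0.36 reads per kb of exon per M reads with dMTS. Within the sum of DUSP2, DUSP4 and DUSP5, the share of DUSP2 was 75.6% ± 0.52, 67.3% ± 0.43 and 53.0% ± 4.72 in the same order. The share of DUSP4 was 14.4% ± 0.28, 20.6% ± 0.78 and 32.2% ± 4.62. These sums leave out genes outside the members, so they are not totals of a class. Among those left out is DUSP1, with 1168 estimated reads on average with eGFP against 1215 for DUSP2.

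The ratio of DUSP2 to DUSP4, which needs no scaling between libraries, was 5.18, 5.40 and 5.14 with eGFP, 3.40, 3.14 and 3.26 with full-length, and 2.17, 1.45 and 1.44 with dMTS. The 3 groups did not overlap, and dMTS replicate 1 was the dMTS library nearest to full-length. The sum of DUSP2, DUSP4 and DUSP5 was 8.34 ± 0.13 with eGFP, 6.76 ± 0.39 with full-length and 6.26 ± 0.21 reads per kb of exon per M reads with dMTS. The sum of the cytoplasmic DUSP6 and DUSP7 was 4.79 ± 0.08, 4.75 ± 0.19 and 4.64 ± 0.13 in that order, with overlapping libraries. Because SPRY4, DUSP2 and DUSP4 were picked on these libraries, the shares and ratios that hold them are given with no test.

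**Figure D3:**
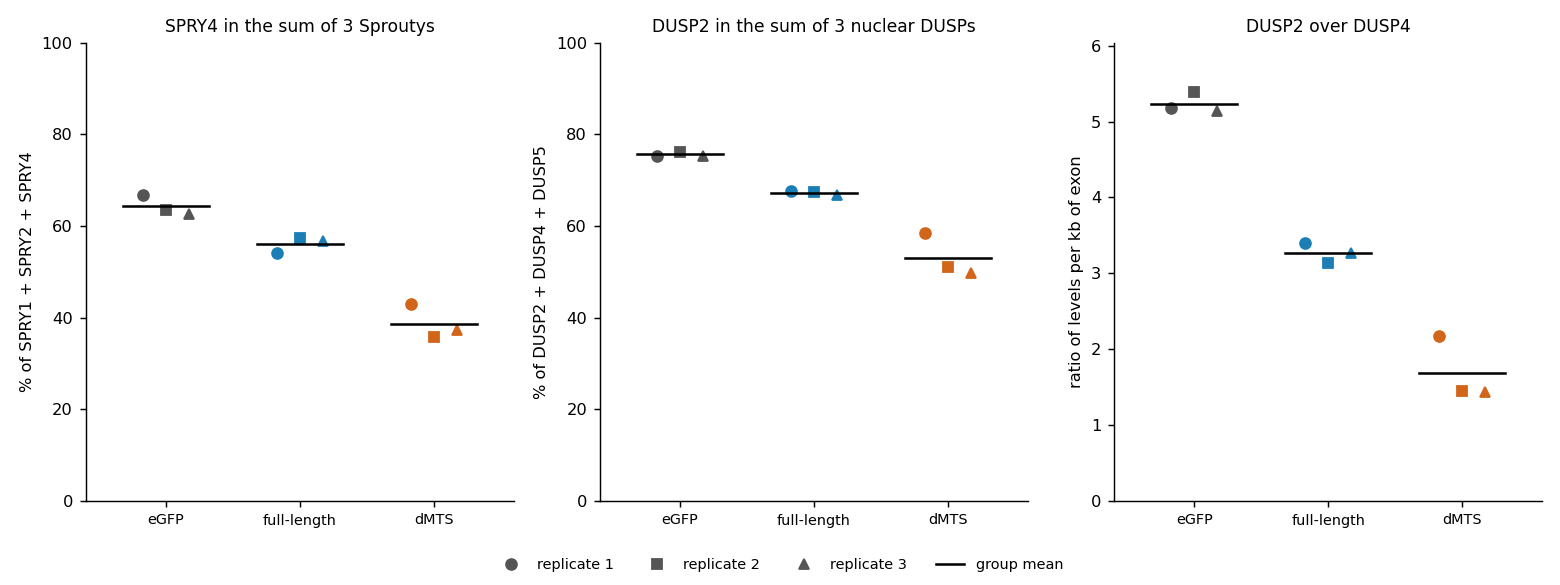
Share of SPRY4 in SPRY1 + SPRY2 + SPRY4 and of DUSP2 in DUSP2 + DUSP4 + DUSP5 (%), and the ratio of DUSP2 to DUSP4. Each is from reads per kb of exon, by group, with 1 point per library and a line at the mean. Genes outside the members, such as DUSP1, are not in the sums. All 3 quantities step down from eGFP to full-length to dMTS, the ratio from 5.24 to 3.27 to 1.69.

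The tested genes whose profile over the 9 libraries was nearest to that of SPRY4 were sought by the root mean square difference of log2(TPM + 1), each gene centred on its own mean. They were ID1 (0.141), ID3 (0.142), the long noncoding RNA LINC02593 (0.160), AGR2 (0.166) and DUSP2 (0.180), against 0.477 for SPRY4 set against a flat profile. SPRY4 and DUSP2 were both picked for their change with dMTS in these libraries, so nothing is read from the likeness of DUSP2. ID1 and ID3 encode helix-loop-helix proteins that block other helix-loop-helix factors, and AGR2 a disulfide isomerase. ID1 was at 99.8 ± 1.45, 77.0 ± 1.79 and 51.2 ± 12.1 TPM (SD, n = 3) with eGFP, full-length and dMTS.

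For DUSP4 the nearest genes were SOX9 (0.0436), FADS2 (0.0538), SDC4 (0.0667), DDIT4 (0.0693) and GPX8 (0.0733), against 0.260 for a flat profile. SOX9, a transcription factor of prostate epithelium, was at 6.50 ± 0.26, 7.81 ± 0.58 and 10.2 ± 1.89 TPM (SD, n = 3) with eGFP, full-length and dMTS. FADS2, a fatty acid desaturase, was at 12.5 ± 0.77, 14.9 ± 0.95 and 19.2 ± 4.01 TPM. Of the nearest genes, only GPX8 separated all groups without overlap as DUSP4 did. For SOX9 and FADS2 the full-length and dMTS libraries overlapped, and for SDC4 and DDIT4 the eGFP and full-length libraries did. DDIT4 was at 106 to 118 TPM with eGFP, 109 to 116 TPM with full-length and 122 to 174 TPM with dMTS. The profiles share the same 9 libraries and their scaling, including the high dMTS replicate 2, and are a description.

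The wider pathway was read through 9 lists of genes, set out below for dMTS against eGFP from the receptor inward. As deposited, limma called 0 genes in each of them, where it called 0.514% of all 13231 genes and 1446 had an unadjusted p under 0.05. At an unadjusted p under 0.05 there was 1 gene each among the atypical phosphatases, the ERK-induced genes, the JNK and p38 kinases and the other feedback genes, and 0 in the remaining 5 lists. The calls below are from the rescaled fit or from estimated reads, where 9.39% and 7.5% of all genes were called. In these fits 3742 of 13231 and 5744 of 23930 genes had an unadjusted p under 0.05. The median difference over all genes was 0.01 on both.

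Of 17 ligands found, 2 reached 1 TPM in 3 or more libraries, the EGF-family ligand HBEGF (-0.05) and VEGFA (-0.07), and 0 were called rescaled. On estimated reads 11 of the 17 could be tested, and limma-voom called 0, with 1 at an unadjusted p under 0.05. Of 6 tested receptor tyrosine kinases 1 was called rescaled, the collagen receptor DDR1, which fell by 0.20 (SE 0.03, limma adjusted p = 0.0131). The list's median was -0.01, and ERBB3, a receptor for neuregulins, was at 0.03. On estimated reads 3 of 15 receptors were called, all lower. They were DDR1, the fibroblast growth factor receptor FGFR3 at -0.96 (SE 0.11, limma-voom adjusted p = 0.00193) and the insulin-like growth factor receptor IGF1R at -0.48 (SE 0.06, adjusted p = 0.00361). FGFR3 had 433, 371 and 252 estimated reads on average with eGFP, full-length and dMTS.

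In the cascade from GRB2 to the RSK kinases, 1 of 16 tested genes was called rescaled, the kinase gene ARAF, which fell by 0.13 (SE 0.03, limma adjusted p = 0.0300). The RAS gene NRAS and the phosphatase gene PTPN11, whose differences were the largest as deposited, were at 0.24 (adjusted p = 0.0776) and 0.10 (adjusted p = 0.473) rescaled. The list's median was -0.01, and 0 of 21 were called on estimated reads. Among binding partners of Sprouty and SPRED proteins 2 of 6 fell after rescaling. These were TESK1, a kinase that Sprouty inhibits (-0.25, limma adjusted p = 0.0330), and the phospholipase gene PLCG1 (-0.19, adjusted p = 0.0236). The ubiquitin ligase SIAH2, which degrades Sprouty, was at 0.10 (adjusted p = 0.0657).

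Of the Sprouty, SPRED and MAPK phosphatase genes outside the 10, 2 of 4 tested fell after rescaling: DUSP1, a phosphatase of p38 and JNK, by 0.23 (SE 0.04, limma adjusted p = 0.0160) and DUSP8, a phosphatase of JNK and p38, by 0.16 (SE 0.03, adjusted p = 0.0244). DUSP1 was at 11.7 to 12.9 TPM with eGFP and 9.70 to 12.4 TPM with dMTS. DUSP9 was at 0.08 (adjusted p = 0.220). On estimated reads 3 of 7 fell, with SPRED3 at -0.69 (SE 0.13, limma-voom adjusted p = 0.0142) beside DUSP1 and DUSP8.

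Among other feedback genes, 1 of 4 tested fell after rescaling, the EGFR inhibitor ERRFI1 (-0.16, limma adjusted p = 0.0297). LRIG1, which targets ERBB receptors for degradation, was at 0.23 (adjusted p = 0.0844). On estimated reads IL17RD, an inhibitor of FGF signalling also called SEF, rose by 0.37 (SE 0.09, limma-voom adjusted p = 0.0350), and ERRFI1 was not called (adjusted p = 0.0713). Of 10 tested atypical phosphatases 1 fell, the cofilin phosphatase SSH3 (-0.39, SE 0.07, limma adjusted p = 0.0215), and DUSP12 was at 0.10 (adjusted p = 0.137).

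In the parallel arms 2 of 7 tested JNK and p38 genes fell after rescaling, the p38 kinases MAPK11 (-0.23, limma adjusted p = 0.0385) and MAPK12 (-0.27, adjusted p = 0.0402). On estimated reads the p38 activator MAP2K6 rose by 0.71 (SE 0.12, limma-voom adjusted p = 0.00783) while those 2 fell. Among genes known to be induced by ERK, 3 of 10 tested were called rescaled. FOS (-0.27, limma adjusted p = 0.0295) and KLF6 (-0.24, adjusted p = 0.0435) fell and MYC (0.19, adjusted p = 0.0424) rose, and the list's median was -0.14. FOS was at 1.12 to 1.33 TPM with eGFP, 0.886 to 0.930 with full-length and 0.720 to 1.04 with dMTS. On estimated reads FOS, KLF6 and PHLDA1 (-0.26, limma-voom adjusted p = 0.0348) fell, EPHA4 (1.15, adjusted p = 0.0369) rose from 18.5 reads on average to 46.7, and MYC was not called (adjusted p = 0.0577).

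**Figure D4:**
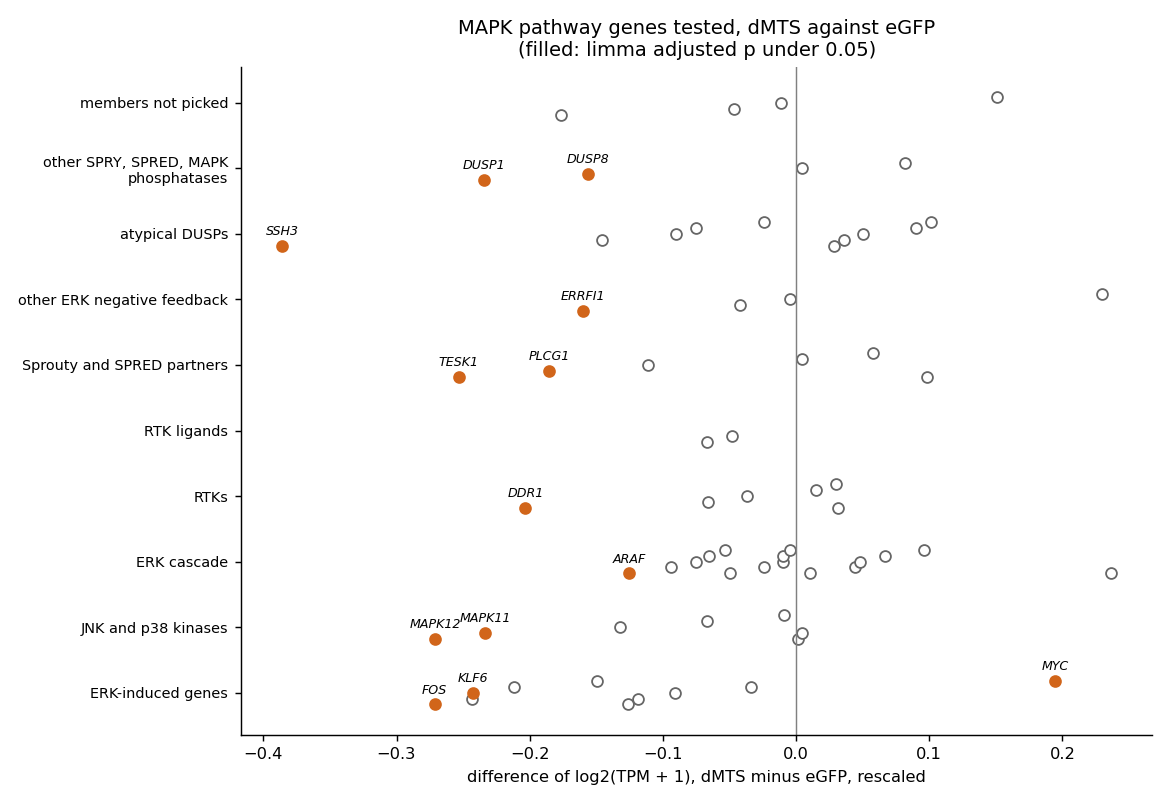
Rescaled differences of log2(TPM + 1), dMTS minus eGFP (horizontal axis), for the tested genes of each list, 1 point per gene, filled where limma's adjusted p was under 0.05. SPRY4, DUSP2 and DUSP4 are not drawn, and every gene shown lies between -0.39 and 0.24.

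With full-length OGDHL against eGFP, 0 genes of the 9 lists were called by limma as deposited or rescaled, or by limma-voom. These fits called 0.00756%, 0.0302% and 0.0251% of all genes, so a count of 0 says little about the lists. The list genes called rescaled with dMTS differed in the same direction with full-length. Their rescaled full-length differences were: DDR1 -0.15, ARAF -0.10, TESK1 -0.17, PLCG1 -0.06, DUSP1 -0.11, DUSP8 -0.12, ERRFI1 -0.06. The others were SSH3 -0.22, MAPK11 -0.11, MAPK12 -0.09, FOS -0.22, KLF6 -0.05 and MYC 0.11. Both differences are taken from the same eGFP libraries, so a shared direction is partly built in and nothing is read from it. A call against eGFP with dMTS alone does not by itself make a difference particular to dMTS. At an unadjusted p under 0.05 as deposited there were 2 ERK-induced genes, 1 atypical phosphatase and 0 in the other lists, against 261 of all 13231 genes. The same 3 fits called 0 genes of the lists between the OGDHL forms, where they called 0, 0.00756% and 0.00418% of all genes. As deposited 0 list genes had an unadjusted p under 0.05, against 717 of 13231. On estimated reads also rescaled, limma-voom called 1 of 15 receptor tyrosine kinases, lower with dMTS (adjusted p = 0.0439), and 14 of 23930 genes. COL1A1, which made up most of the signal from markers of other cell types, was lower with dMTS on estimated reads (-0.41, SE 0.09, limma-voom adjusted p = 0.0239). Its groups stood in the same order as for SPRY4 and DUSP2. It was not called as deposited (-0.25, limma adjusted p = 0.209) or rescaled (-0.30, adjusted p = 0.0646). Of the 7 luminal markers 1 was called rescaled, the epithelial adhesion gene EPCAM, which rose with dMTS by 0.21 (SE 0.03, limma adjusted p = 0.0103). On estimated reads 3 were called, EPCAM at 0.23 (SE 0.04, limma-voom adjusted p = 0.0102), the keratin gene KRT18 at 0.18 (SE 0.05, adjusted p = 0.0417) and KLK3, which encodes prostate-specific antigen, at -0.14 (SE 0.04, adjusted p = 0.0468). As deposited 0 of the 7 were called, with 2 at an unadjusted p under 0.05, a level that 1446 of 13231 genes reached. The part of these markers in the differences of SPRY4, DUSP2 and DUSP4 was not tested.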

How the data were processed

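Per the labels' protocols, mRNA was enriched, primed at random, made into libraries that keep the strand, and sequenced from both ends for 50 bases. The authors deposited gene-level TPM, with no counts. The submitters' processing notes name STAR and GRCh38. The quantifier and the annotation's release were not given in the sources used here. The length column deposited by the authors equalled the genomic span in 100% of genes. Gene ends are printed 1 base before the deposited stop, which matches GENCODE 29 in 80.2% of genes with an equal start.

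The 13231 genes that reached 1 TPM in 3 or more of 9 libraries were fitted on log2(TPM + 1) with limma 3.58.1 (R 4.3.3, data.table package, release 1.17.8), with the eBayes variance trend, all 9 libraries and 6 residual degrees of freedom. P-values were two-sided and Benjamini-Hochberg adjusted over all genes tested, with calls at an adjusted p under 0.05. For the rescaled fit each library was scaled to a median log2 ratio of 0. Estimated reads are TPM times span divided by the value of 1 read, found from the spacing of values under 20 reads. Between 72.5% and 75.0% of those came out whole within 0.01, so the reads are estimates, with no counting interval given, and limma-voom on them (at least 10 reads in at least 3 libraries, 23930 genes) is an alternative. Exon lengths came from GENCODE 29. Fits were tested on simulated data.

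The members, the gene lists and the tests were chosen with earlier results of these data known. Named genes were the members, list genes called as deposited or rescaled with each list's 2 largest differences, and the 5 genes nearest to SPRY4 and to DUSP4. List genes called on estimated reads alone were named after their values were seen. HGF, CD3E and KRT5 were not analysed here. Same-numbered libraries deviated together at correlations of -0.44 to 0.11 across genes, so replicate numbers were not taken to pair them.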

Additional observations from a re-analysis of the deposited data

How the results depend on the processing

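Over the members, 563 alternative values kept their direction and side of the threshold or stayed within the spread. Of the rest, 28 moved in size, most with the pseudocount or the use of estimated reads, 3 gained a call (SPRY1 with dMTS, and SPRY4 and DUSP2 with full-length, all against eGFP, rescaled and without dMTS replicate 1) and 0 reversed. The calls of SPRY4 and DUSP2 use the eGFP libraries on which these genes were picked, and nothing is read from them. SPRY4 ran from -1.58 to -0.57 for dMTS against eGFP, DUSP2 from -0.97 to -0.62 and DUSP4 from 0.24 to 0.76. Counts over all genes moved far more. For dMTS against eGFP the 68 calls became 13 with no filter, 39 at a mean TPM of at least 5, 1242 rescaled, and 1795 on estimated reads (2204 rescaled by the median, used in place of TMM, which was not run). The higher share of calls was 7 of 68 as deposited and 440 of 1242 rescaled. Leaving out 1 library gave 3 (without eGFP replicate 2) to 2359 (rescaled, without dMTS replicate 1). For full-length against eGFP the count of 1 became 7 with no filter, 2 at a mean of 5, 4 rescaled, 0 without OGDHL and mitochondrial genes in the TPM, 6 on estimated reads (5 rescaled), and 1 to 13 with 1 library left out. Between the forms, 0 became 7 with no filter, 1 at a mean of 5, 1 rescaled, 1 on estimated reads (14 rescaled), and 0 to 912 with 1 library left out, the top again without dMTS replicate 1. The replicate block gave 13 calls for dMTS against eGFP and changed the call of no member that has a test. SPRED1, DUSP5 and DUSP6, below 1 TPM, entered the TPM fit only with no filter, where their limma adjusted p for dMTS against eGFP were 0.911, 0.690 and 0.982.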
